A study of Mus musculus with 18 samples.

Results

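Transcripts of 10 genes of ceramide and sphingolipid metabolism were measured in mouse ventricular myocardium. The genes are Sptlc1, Sptlc2, Cers2, Cers4, Cers5, Degs1, Asah1, Smpd1, Sgms1 and Ugcg, taken by gene symbol from the array's annotation, out of 18193 genes with a probe set of a single symbol. They had 26 probe sets, and each gene was read from its set with the highest mean signal. All 10 of these sets passed the filter on low signals, as did 12 further sets. The series held 18 arrays, 1 per heart sample. ob/ob mice, which lack functional leptin because of a mutation they carry in every cell, were on a C57Bl/6J background, were 6 months old at the start and were followed for 1 month. Of the samples, 5 came from ob/ob mice that received leptin by osmotic mini-pump, 5 from ob/ob mice that ate only as much as the leptin group (calorie restricted), and 4 from ob/ob mice that ate ad libitum. The 4 wild type samples came from untreated C57Bl/6J mice, labelled 6 months old in the sample records and 6 to 8 months in the design text, so age may differ along with genotype. The ob/ob groups shared the mutation, and the leptin and calorie restricted groups also shared a lowered food intake.

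Ceramide is built in the endoplasmic reticulum. Serine palmitoyltransferase starts the route, ceramide synthases attach a fatty acid of a length that depends on the enzyme, and a desaturase turns dihydroceramide into ceramide. Ceramide is then converted into sphingomyelin or glucosylceramide or is broken down to sphingosine, and sphingomyelinases return it from sphingomyelin. Heart muscle that takes up more fatty acid than it oxidises is known to accumulate ceramide, and ceramide has been studied in obese hearts for that reason.

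The values are MAS5 signals, linear intensities that the authors scaled to a common trimmed mean per array. The array medians ran between 22.3 and 31.8, the correlations between arrays between 0.943 and 0.971, and 0 pairs of arrays were identical. The 8 ventricular cardiomyocyte markers, Myl2 and Tnni3 among them, summed to between 47842 and 72894 on every array. The atrial markers Myl7, Myl4 and Sln summed to 97.6 to 664 in the leptin group, 53.4 to 9160 in the calorie restricted group, 51.7 to 966 in the ad libitum group and 281 to 1424 in wild type, with calorie restricted replicates 2 and 3 highest. The calorie restricted median was 1355, so these were not the only arrays of that group above the leptin and ad libitum ranges. Lep itself averaged between 4.11 and 8.06 in the 4 groups, under the filter on low signals, so the arrays gave no check of genotype at the mutated gene. The labels do not say whether a sample was a single mouse. The p-values rest on the spread of samples within groups, pooled over the 4 groups and moderated over all genes. Whether that is the spread between mice is not known.

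Of the 10 genes, Degs1 and Sgms1 differed between the leptin and the calorie restricted hearts, Degs1 also differed between calorie restricted and wild type hearts, and the remaining genes passed the test in none of the 6 comparisons. Differences are given on the scale of log2(signal + 5.13), as the first named group minus the second, from a limma model over all 18 arrays and 13359 genes, and a gene counted as called when its Benjamini-Hochberg adjusted p was under 0.05. In leptin against calorie restricted, which sets hearts with matched food intake side by side, 2 of 10 genes were called, where 13.6% of all genes tested were. The count was 1 higher, where 7.91% of all genes were higher, and 1 lower, where 5.73% were lower, and 5 of the 10 had an unadjusted p under 0.05, as did 26.9% of all genes. In calorie restricted against wild type 1 of 10 was called, where 11.3% of all genes were. It was lower, as were 6.24% of all genes, while 5.02% of all genes and 0 of the 10 were higher, and 3 of the 10 had an unadjusted p under 0.05, as did 24.5% of all genes. Both shares were close to those of the array as a whole, and so are no result about the 10 genes together.

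In the other comparisons limma called 0 of the 10. For calorie restricted against ad libitum, which asks what the lowered intake did in ob/ob hearts, 5.42% of all genes were called, 2.46% higher and 2.96% lower, and 2 of the 10 had an unadjusted p under 0.05, as did 19.1% of all genes. For leptin against ad libitum 0.644% of all genes were called, and 2 of the 10 had an unadjusted p under 0.05, as did 13.5% of all. The groups overlapped for all 10 there, while 5.34% of all genes were free of overlap. For leptin against wild type 0.00749% were called, and 3 of the 10 had such a p, as did 10% of all genes. For ad libitum against wild type, which asks about obesity and leptin deficiency, 0.299% were called and 3 of the 10 had such a p, as did 10.3% of all. The 95% intervals of the uncalled differences reached from -0.64 to 0.56 in leptin against ad libitum, from -0.50 to 0.57 in calorie restricted against ad libitum, from -0.69 to 0.46 in leptin against wild type and from -0.60 to 0.47 in ad libitum against wild type. These are the outermost limits over the 10 genes, and the intervals of single genes were narrower. In leptin against ad libitum, that of Cers4 ran from -0.64 to 0.14 and that of Cers5 from -0.12 to 0.17. Differences within a gene's own interval were not excluded by these arrays. These comparisons share arrays: each group enters 3 of the 6.

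**Figure D1:**
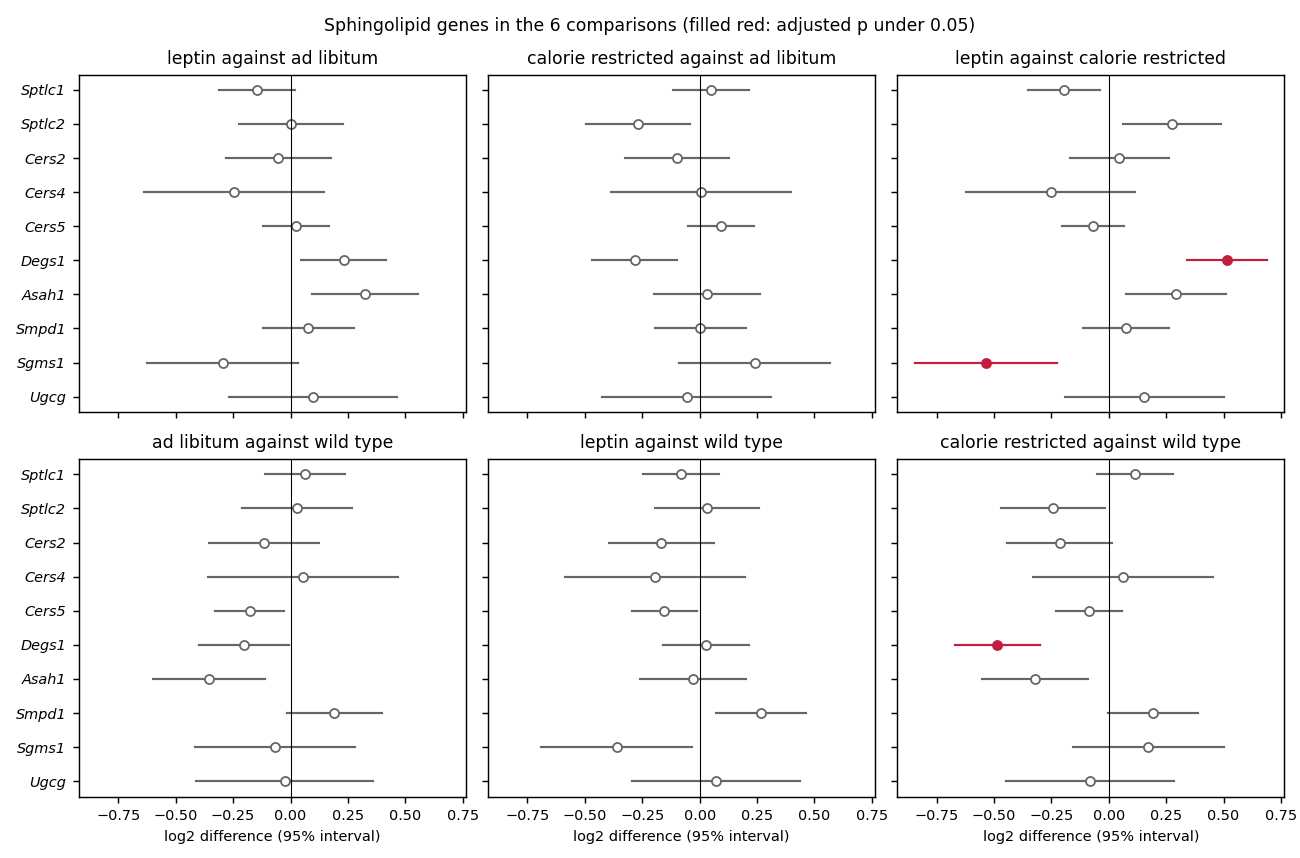
Log2 difference of each of the 10 genes in the 6 comparisons, with the 95% interval as a line and called genes filled in red. The horizontal axis is the log2 difference, first named group minus second, and the red points are Degs1 and Sgms1 in leptin against calorie restricted and Degs1 in calorie restricted against wild type.

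The median of the 10 log2 differences was 0.06 in leptin against calorie restricted, against -0.03 over all genes tested, with 6 genes above 0 and 4 below. It was -0.08 in calorie restricted against wild type, against 0.00 over all genes, with 4 above 0 and 6 below. The signs were mixed in both. In leptin against calorie restricted the members ranged between -0.53 for Sgms1 and 0.51 for Degs1.

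Serine palmitoyltransferase, the entry step, is a complex of Sptlc1 and Sptlc2. The Sptlc1 signal was 173, 185, 162, 187 and 175 in leptin hearts, 213, 211, 186, 196 and 206 in calorie restricted hearts, 199, 208, 179 and 196 in ad libitum hearts, and 196, 195, 195 and 161 in wild type hearts. The leptin hearts sat at the low end, and the highest of them lay just above the lowest calorie restricted heart. The log2 difference of leptin from calorie restricted was -0.20 ± 0.07 (SE, n = 5 each), with a limma adjusted p of 0.0938. The Sptlc2 signal, that of the catalytic subunit, was 96.3, 78.4, 79.5, 97.6 and 83.7 in leptin hearts, 61.1, 60.6, 81.9, 86.0 and 68.1 in calorie restricted hearts, 84.4, 95.8, 83.3 and 83.1 in ad libitum hearts, and 82.2, 78.7, 92.1 and 86.2 in wild type hearts. Of the calorie restricted hearts, 3 lay under every other heart and the remaining hearts of that group lay among the others. The Sptlc2 difference was 0.27 ± 0.10 in leptin against calorie restricted, with a limma adjusted p of 0.0850, and -0.27 ± 0.11 in calorie restricted against ad libitum, with an adjusted p of 0.168. The subunits thus gave differences of opposite sign in leptin against calorie restricted, both uncalled. The Sptlc2 difference was called under 2 of 20 alternatives, with the probe sets of a gene averaged (0.33, adjusted p 0.0208) and without calorie restricted replicate 4 (0.34, adjusted p 0.0329), and the adjusted p ran between 0.0208 and 0.310 over the 20. A further Sptlc2 set, with a mean of 78.0 over the arrays beside 82.2, placed wild type hearts lowest. It averaged 62.2 in wild type and 71.4 in calorie restricted hearts. Calorie restricted against wild type was 0.19 ± 0.17 on that set and -0.24 ± 0.11 on the set with the highest mean, both uncalled.

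The ceramide synthases Cers2, Cers4 and Cers5 were called in none of the comparisons. Cers2, which makes ceramides with very long fatty acids, averaged 225 ± 32.2 in leptin (SD, n = 5), 217 ± 22.8 in calorie restricted (n = 5), 233 ± 25.9 in ad libitum (n = 4) and 251 ± 7.20 in wild type hearts (n = 4). All 5 calorie restricted hearts, at 180 to 233, lay under the wild type hearts, at 245 to 260, and the difference was -0.21 ± 0.11 with a limma adjusted p of 0.240. Cers4, which makes ceramides of long chain length, was among the most variable of the 10, with a within-group SD of 0.29 on the log2 scale, and averaged 117 ± 16.5 in leptin hearts, 142 ± 33.4 in calorie restricted hearts, 141 ± 34.4 in ad libitum hearts and 135 ± 22.7 in wild type hearts. Cers5, the palmitoyl-preferring synthase, was the least variable, with a within-group SD of 0.07, where the median over all genes tested was 0.22. Its signal was 279, 297, 291, 261 and 281 in leptin hearts, 297, 323, 302, 287 and 271 in calorie restricted hearts, 263, 281, 281 and 283 in ad libitum hearts, and 307, 304, 311 and 335 in wild type hearts. All leptin and all ad libitum hearts lay under all wild type hearts for Cers5. The log2 differences were -0.15 ± 0.07 for leptin against wild type and -0.18 ± 0.07 for ad libitum against wild type, with limma adjusted p-values of 0.481 and 0.382. Of the 10 genes, 1 in each of these comparisons was free of overlap between the groups, where 3.24% of all genes were in leptin against wild type and 7.06% in ad libitum against wild type.

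**Figure D2:**
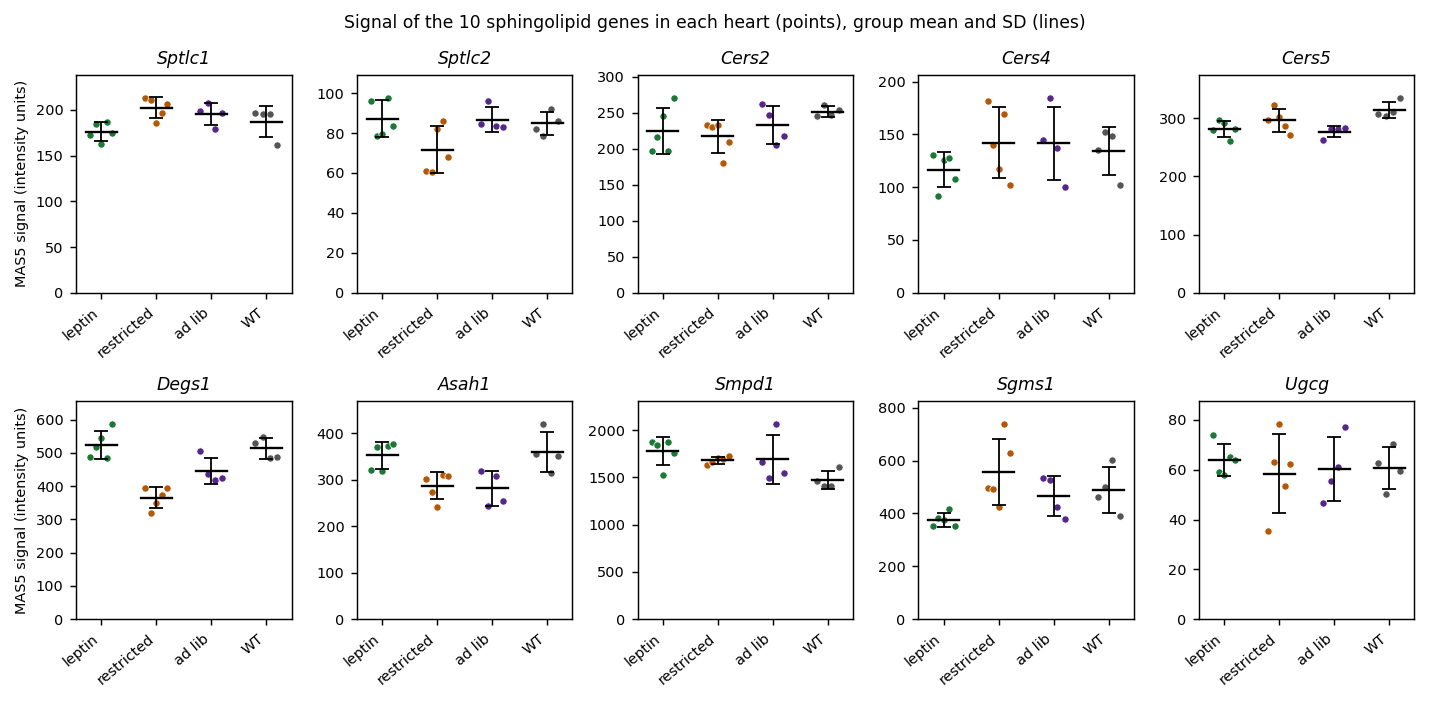
MAS5 signal of the 10 genes in every heart, with the mean and SD of each group as lines, in leptin treated, calorie restricted and ad libitum fed ob/ob mice and in wild type mice. Each vertical axis starts at 0 and belongs to its own gene; the 5 calorie restricted points of Degs1 lie under every point of the other groups, and the 5 leptin points of Sgms1 lie under every calorie restricted point.

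Degs1, the dihydroceramide desaturase that completes ceramide, was lower in calorie restricted hearts than in leptin and in wild type hearts. Its signal was 489, 516, 544, 484 and 586 in leptin hearts, 395, 319, 348, 373 and 393 in calorie restricted hearts, 505, 437, 417 and 424 in ad libitum hearts, and 531, 549, 485 and 488 in wild type hearts. The calorie restricted hearts lay under all others, and the leptin and wild type hearts shared an upper range. Of the ad libitum hearts, 3 lay between these and 1, at 505, lay within the upper range. Leptin hearts averaged 524 ± 42.3 and calorie restricted hearts 366 ± 32.1 (SD, n = 5 each), a log2 difference of 0.51 ± 0.08 (95% interval 0.34 to 0.69, 1.43-fold, limma adjusted p = 0.000682). Calorie restricted against wild type, at 513 ± 31.9 in wild type (n = 4), gave -0.49 ± 0.09 (95% interval -0.67 to -0.30, limma adjusted p = 0.00200).

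The other Degs1 comparisons were not called. Calorie restricted against ad libitum, at 446 ± 40.3 in ad libitum hearts (n = 4), gave -0.28 ± 0.09 with a limma adjusted p of 0.0723, although the groups did not overlap. Of the 10 genes only Degs1 was free of overlap there, where 9.21% of all genes tested were. Leptin against ad libitum gave 0.23 ± 0.09 (adjusted p 0.253), ad libitum against wild type -0.20 ± 0.09 (adjusted p 0.461) and leptin against wild type 0.03 ± 0.09 (95% interval -0.16 to 0.21, adjusted p 0.941). Both calls of Degs1 held under every alternative run, 20 for leptin against calorie restricted and 19 for calorie restricted against wild type, with log2 differences between 0.42 and 0.54 and between -0.52 and -0.35. Without calorie restricted replicates 2 and 3, the hearts with the highest atrial markers, they were 0.43 (adjusted p 0.0100) and -0.40 (adjusted p 0.0199). With the atrial markers as a covariate they were 0.51 (adjusted p 0.00408) and -0.48 (adjusted p 0.00364). A second Degs1 probe set was called higher in leptin against calorie restricted (0.33 ± 0.10, limma adjusted p = 0.0399 among 23108 probe sets) and was not called in calorie restricted against wild type (-0.22 ± 0.11, adjusted p 0.227). On that set the mean signals were 311 in leptin, 244 in calorie restricted, 305 in ad libitum and 284 in wild type hearts, so calorie restricted was again lowest, while ad libitum stood above wild type (0.10 ± 0.11, adjusted p 0.818), the opposite sign to the set with the higher mean.

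Sgms1, the Golgi sphingomyelin synthase that moves the phosphocholine head group onto ceramide, was lower in leptin than in calorie restricted hearts. Its signal was 353, 382, 376, 415 and 352 in leptin hearts, 497, 494, 424, 738 and 628 in calorie restricted hearts, 533, 527, 425 and 379 in ad libitum hearts, and 462, 501, 602 and 392 in wild type hearts. The leptin hearts were close together and lay under all calorie restricted hearts, which were widely spread, while the ad libitum and wild type hearts covered the range between and overlapped with both. Leptin hearts averaged 376 ± 25.8 and calorie restricted hearts 556 ± 126 (SD, n = 5 each), a log2 difference of -0.53 ± 0.15 (95% interval -0.84 to -0.22, limma adjusted p = 0.0228). Degs1 and Asah1 were the other genes of the 10 whose leptin and calorie restricted hearts did not overlap, 3 of 10 where 10.9% of all genes did not. The Sgms1 differences were -0.30 ± 0.16 for leptin against ad libitum (adjusted p 0.426), 0.24 ± 0.16 for calorie restricted against ad libitum (adjusted p 0.461), -0.36 ± 0.16 for leptin against wild type (adjusted p 0.477) and 0.17 ± 0.16 for calorie restricted against wild type (adjusted p 0.565).

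The Sgms1 call did not hold without some single hearts. It was lost without calorie restricted replicate 4, the highest of that group (-0.43, adjusted p 0.0555), without calorie restricted replicate 5 (-0.48, adjusted p 0.0546) and without leptin replicate 5 (-0.51, adjusted p 0.0515), and with replicate number as a block (-0.53, adjusted p 0.0573). It held under 16 of 20 alternatives, over which the adjusted p ran between 0.00266 and 0.0573. Its other probe sets pointed the same way. In the limma fit of 23108 probe sets, 3 of 4 Sgms1 sets above the filter were called lower in leptin against calorie restricted. They gave -0.53 ± 0.15, -0.72 ± 0.15 and -0.35 ± 0.10, with limma adjusted p-values of 0.0273, 0.00639 and 0.0293. The first of these is the set read above, with an adjusted p of 0.0228 in the limma fit of genes. The remaining set was not called, at -0.35 ± 0.18 with an adjusted p of 0.233. Without calorie restricted replicates 2 and 3, the Sgms1 difference was -0.70 with an adjusted p of 0.0132.

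Upstream sequence is shown for the genes called, Degs1 and Sgms1, since their transcripts differed in opposite directions in leptin against calorie restricted. Promoters came from RefSeq on GRCm38.p6, which held 13 starts for 9 of the 10 genes, Asah1 being the exception. The 250 bases before each start were searched for the E-box CACGTG and, on both strands, for the nuclear receptor core AGGTCA, motifs of transcription factor families known to act on lipid genes. Capitals mark the motif in each run (TGACCT where AGGTCA lies on the opposite strand), written 5′ to 3′ along the gene's own strand.
Degs1, chr1:182282196-182282445, minus strand: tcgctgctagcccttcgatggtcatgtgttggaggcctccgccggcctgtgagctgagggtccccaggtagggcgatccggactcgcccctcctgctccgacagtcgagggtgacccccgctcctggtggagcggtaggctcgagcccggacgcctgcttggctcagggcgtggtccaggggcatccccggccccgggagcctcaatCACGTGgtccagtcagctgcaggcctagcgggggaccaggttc
Sgms1, chr19:32388050-32388299, minus strand, the second of 4 starts: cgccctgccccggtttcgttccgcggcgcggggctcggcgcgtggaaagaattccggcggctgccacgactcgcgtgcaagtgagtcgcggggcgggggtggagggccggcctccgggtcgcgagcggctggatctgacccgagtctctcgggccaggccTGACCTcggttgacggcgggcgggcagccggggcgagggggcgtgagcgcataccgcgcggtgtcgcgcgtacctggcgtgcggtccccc
The Degs1 window held 1 E-box, beginning 43 bases before the start, and no AGGTCA. The Sgms1 windows held no E-box, and 2 of the 4 held AGGTCA, the one shown and the third. The E-box stood in 2 of the 13 windows, those of Degs1 and Cers2, and in 6.02% of 32851 RefSeq promoters of the same length. AGGTCA stood in 4 of the 13, of Cers2, Sgms1 and Smpd1, and in 14.0% of all. A match describes letters in these windows, and no factor was measured here.

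Ugcg, the glucosylceramide synthase that competes with Sgms1 for ceramide, was called in none of the comparisons. Its signal was 74.1, 58.9, 57.8, 65.1 and 63.7 in leptin hearts, 35.2, 63.2, 78.3, 53.4 and 62.2 in calorie restricted hearts, 46.7, 55.6, 61.0 and 77.3 in ad libitum hearts, and 62.9, 50.4, 70.5 and 59.4 in wild type hearts. All 4 groups overlapped, and calorie restricted replicate 1 and replicate 3 were the lowest and the highest of the 18. The difference of leptin from calorie restricted was 0.15 ± 0.16 (95% interval -0.19 to 0.50, limma adjusted p 0.597), and the other Ugcg sets above the filter gave -0.30 ± 0.17 and -0.30 ± 0.21, so that the sets disagreed in sign and none was called.

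Breakdown was followed through Asah1, the lysosomal acid ceramidase, and Smpd1, the lysosomal acid sphingomyelinase, whose deficiency causes Niemann-Pick disease. The Asah1 signal was 322, 371, 318, 374 and 377 in leptin hearts, 301, 275, 242, 310 and 308 in calorie restricted hearts, 319, 244, 308 and 255 in ad libitum hearts, and 355, 420, 316 and 352 in wild type hearts. The leptin and the wild type hearts shared an upper range, and the calorie restricted and the ad libitum hearts a lower one. The calorie restricted hearts lay under all leptin and all wild type hearts, and 1 ad libitum heart reached into the upper range. The Asah1 difference was 0.29 ± 0.10 for leptin against calorie restricted (95% interval 0.08 to 0.51, limma adjusted p 0.0711), 0.32 ± 0.11 for leptin against ad libitum (0.09 to 0.56, adjusted p 0.191), -0.32 ± 0.11 for calorie restricted against wild type (-0.55 to -0.09, adjusted p 0.0694) and -0.35 ± 0.11 for ad libitum against wild type (-0.60 to -0.11, adjusted p 0.252). None passed the threshold, and each of these intervals left out 0 before adjustment over all genes. The 2 remaining differences were small, 0.03 ± 0.11 for calorie restricted against ad libitum and -0.03 ± 0.11 for leptin against wild type.

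The Smpd1 signal was 1873, 1846, 1524, 1876 and 1761 in leptin hearts, 1630, 1658, 1701, 1695 and 1725 in calorie restricted hearts, 1661, 1493, 2063 and 1550 in ad libitum hearts, and 1465, 1407, 1407 and 1611 in wild type hearts. The wild type hearts were at the low end, and all calorie restricted hearts lay above them. The differences were 0.27 ± 0.09 for leptin against wild type (limma adjusted p 0.392), 0.19 ± 0.09 for calorie restricted against wild type (adjusted p 0.214) and 0.19 ± 0.10 for ad libitum against wild type (adjusted p 0.538), so no ob/ob group was called against wild type. On the other Smpd1 set above the filter wild type was not lowest. That set averaged 117 in leptin, 138 in calorie restricted, 139 in ad libitum and 136 in wild type hearts. In calorie restricted against wild type 4 of the 10 genes were free of overlap, Degs1, Asah1 and Cers2 lower and Smpd1 higher, where 13.6% of all genes tested were.

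**Figure D3:**
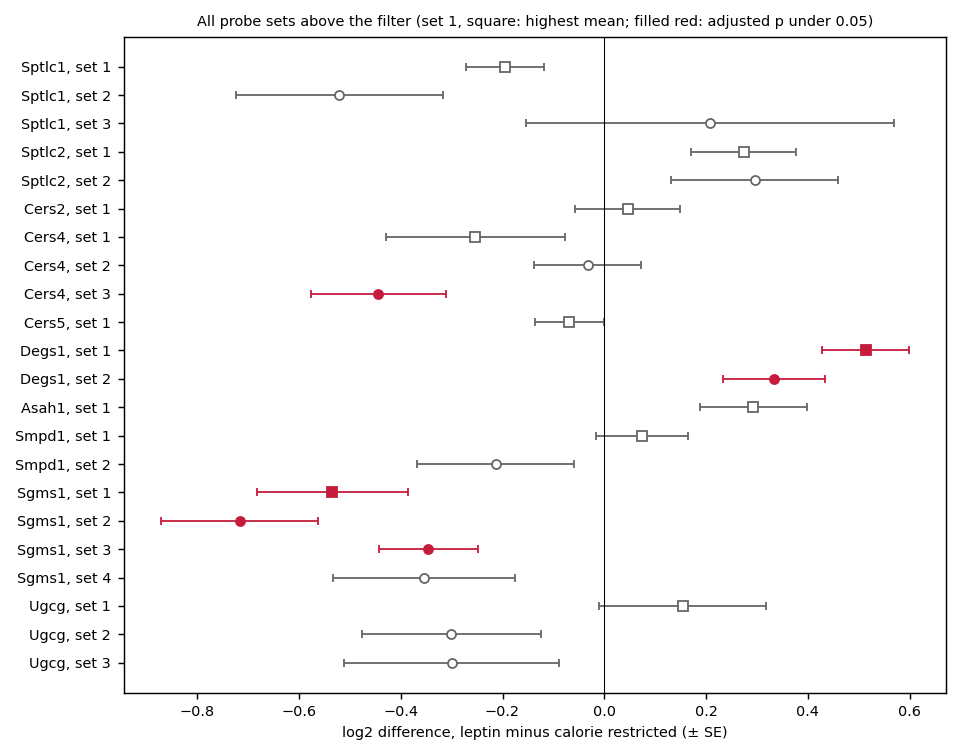
Log2 difference, leptin minus calorie restricted, of the 22 probe sets of the 10 genes above the filter, with the SE as a line; squares are the sets with the highest mean and red marks adjusted p under 0.05. Both Degs1 sets lie right of 0 and all 4 Sgms1 sets left of it, while the sets of Sptlc1, Smpd1 and Ugcg fall on both sides.

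Probe sets of a gene disagreed elsewhere too. The Cers4 set with the lowest mean was called lower in leptin against calorie restricted (-0.44 ± 0.13, limma adjusted p = 0.0388), while the sets with higher means gave -0.25 ± 0.18 and -0.03 ± 0.11, both uncalled. The further sets of Sptlc1 gave -0.52 ± 0.20 and 0.21 ± 0.36, of Sptlc2 0.30 ± 0.16 and of Smpd1 -0.21 ± 0.15, none called. By the array's naming, the Sptlc1 and Smpd1 sets of opposite sign hold probes that can also match other transcripts. The 4 sets under the filter belonged to Sptlc1, Sptlc2, Cers5 and Ugcg, 1 each.

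A list of 59 further genes of the pathway gave the surroundings of the 10, and 54 were measured and 42 passed the filter. The remaining listed genes were not analysed here. In leptin against calorie restricted, 6 of the 42 were called, 5 higher and 1 lower, 14.3% where 13.6% of all genes were. In calorie restricted against wild type 8 were called, 3 higher and 5 lower, 19.0% against 11.3% of all genes. In calorie restricted against ad libitum 1 was called, lower, where 5.42% of all genes were called. In the other comparisons limma called 0. An unadjusted p under 0.05 was found for 8 of the 42 in leptin against ad libitum, where 13.5% of all genes had one. It was found for 8 in leptin against wild type, where 10% had one, and for 5 in ad libitum against wild type, where 10.3% had one. In leptin against calorie restricted 8 had one, beside 26.9% of all genes. The counts were 5 in calorie restricted against ad libitum, beside 19.1%, and 10 in calorie restricted against wild type, beside 24.5%. In these comparisons with the calorie restricted group the share of the 42 was no higher than over all genes. Of the 4 tested genes of de novo synthesis and its control and the 7 of ceramidases and ceramide transfer or phosphorylation, 0 were called in any comparison.

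Of the 9 tested genes of lysosomal and other glycosphingolipid breakdown, 2 were called in leptin against calorie restricted, both higher. In calorie restricted against wild type 3 were called, 1 higher and 2 lower. Of the 10 tested genes of sphingosine 1-phosphate metabolism, export and receptors, 3 were called in each of these comparisons. They were 2 higher and 1 lower in the first, and 1 higher and 2 lower in the second. Over all genes 13.6% and 11.3% were called. Counts from so few genes are no result about a branch. Arsa, arylsulfatase A, which removes the sulfate from sulfatide, had signals of 210, 213, 224, 169 and 191 in leptin hearts, 118, 148, 120, 132 and 113 in calorie restricted hearts, 162, 172, 148 and 125 in ad libitum hearts, and 197, 198, 192 and 224 in wild type hearts. The leptin and wild type hearts were high and overlapped with each other, and the calorie restricted hearts lay under both. Arsa differed by 0.65 ± 0.10 in leptin against calorie restricted (limma adjusted p = 0.000516) and by -0.67 ± 0.11 in calorie restricted against wild type (adjusted p = 0.000877). Hexa, a lysosomal enzyme subunit of ganglioside breakdown, averaged 593 ± 67.0 in leptin and 437 ± 33.2 in calorie restricted hearts (SD, n = 5 each), a difference of 0.43 ± 0.09 with a limma adjusted p of 0.00483, and was lower in calorie restricted than in wild type hearts (-0.37 ± 0.10, adjusted p 0.0212). The second Hexa call was kept by 14 of 19 alternatives, and was lost without calorie restricted replicate 3 (-0.34, adjusted p 0.0513), wild type replicate 2 (-0.36, adjusted p 0.0570) or wild type replicate 4 (-0.34, adjusted p 0.0633). Psap, the precursor of the saposins that present lipids to some lysosomal enzymes, was higher in calorie restricted than in wild type hearts (0.32 ± 0.09, limma adjusted p 0.0313). Of 19 alternatives, 8 kept that call.

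S1pr3, a receptor for sphingosine 1-phosphate, had signals of 302, 374, 271, 284 and 332 in leptin hearts, 196, 188, 212, 196 and 187 in calorie restricted hearts, 250, 304, 291 and 316 in ad libitum hearts, and 235, 253, 251 and 285 in wild type hearts. The calorie restricted hearts were tightly grouped under all others. It was called higher in leptin against calorie restricted (0.65 ± 0.09, limma adjusted p = 0.000225) and lower in calorie restricted against ad libitum (-0.55 ± 0.10, adjusted p = 0.00329) and against wild type (-0.38 ± 0.10, adjusted p 0.0193). With its 3 probe sets averaged, the last pair of calls was lost, at -0.53 (adjusted p 0.0978) and -0.16 (adjusted p 0.667). The call against wild type was also lost without wild type replicate 4 (-0.32, adjusted p 0.0667). S1pr1, the receptor best known from endothelium and lymphocytes, pointed the other way, at -0.39 ± 0.12 in leptin against calorie restricted (adjusted p 0.0418) and 0.42 ± 0.13 in calorie restricted against wild type (adjusted p 0.0409), with overlapping groups, and 8 of 20 and 8 of 19 alternatives kept these calls.

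Among the remaining calls, Spns2, the exporter of sphingosine 1-phosphate, was higher in leptin than in calorie restricted hearts (0.44 ± 0.11, limma adjusted p 0.0172). Sgpp1, a sphingosine 1-phosphate phosphatase, was lower in calorie restricted than in wild type hearts (-0.44 ± 0.12, adjusted p 0.0225), and Smpd2, a neutral sphingomyelinase, was higher (0.38 ± 0.09, adjusted p 0.0146). The Sgpp1 call was kept by 14 of 19 alternatives and lost without wild type replicate 1 (-0.40, adjusted p 0.0701) or 2 (-0.42, adjusted p 0.0652). It was also lost with its 3 probe sets averaged, with only the compared groups fitted, and without calorie restricted replicates 2 and 3 together. The Smpd2 call was kept by 16 of 19 and lost without wild type replicate 2 (0.34, adjusted p 0.0554). B4galt6, a lactosylceramide synthase, was higher in leptin than in calorie restricted hearts (0.34 ± 0.09, adjusted p 0.0224) and lower in calorie restricted than in wild type hearts (-0.34 ± 0.10, adjusted p 0.0353), calls kept by 16 of 20 and by 5 of 19 alternatives. With its 4 probe sets averaged, the B4galt6 differences were 0.12 (adjusted p 0.425) and -0.11 (adjusted p 0.557). All 6 tested genes of glycosphingolipid synthesis had negative differences in calorie restricted against ad libitum, from -0.40 to -0.17, and 0 were called. Of all 13359 genes, 6718 were negative there. With so few genes and no test of the set, this is no result about the branch. Where 0 of the 42 were called, the smallest p-values belonged to Arsa (0.40 ± 0.11, adjusted p 0.106) and Spns2 (0.44 ± 0.12, adjusted p 0.121) in leptin against ad libitum, to Smpd2 (0.32 ± 0.09, adjusted p 0.337) and Spns2 (0.40 ± 0.12, adjusted p 0.345) in leptin against wild type, and to Arsa (-0.42 ± 0.11, adjusted p 0.147) and Sgpp1 (-0.37 ± 0.12, adjusted p 0.276) in ad libitum against wild type. Without calorie restricted replicates 2 and 3, the calls of Arsa, Hexa and S1pr3 remained of the 6 in leptin against calorie restricted, and those of Arsa and Smpd2 of the 8 in calorie restricted against wild type.

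**Figure D4:**
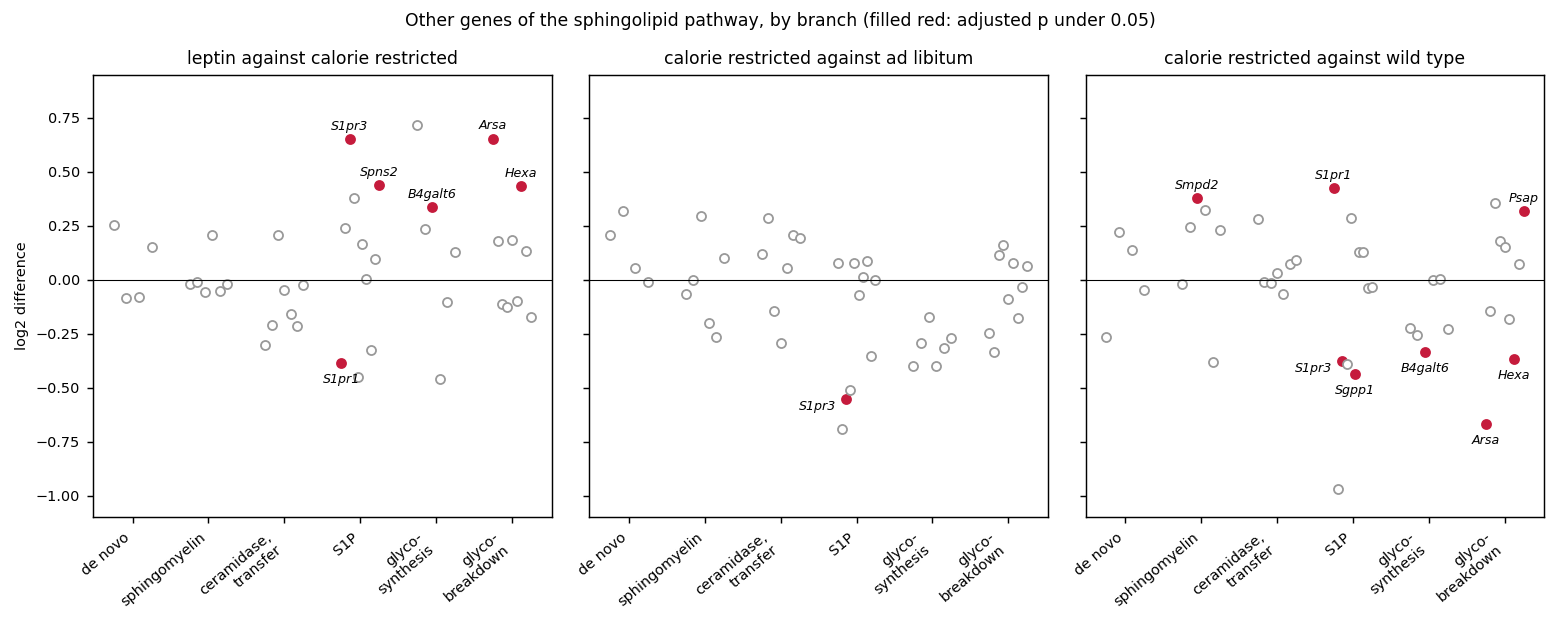
Log2 difference of the 42 further pathway genes that passed the filter, by branch of the pathway, in leptin against calorie restricted, calorie restricted against ad libitum and calorie restricted against wild type, with called genes filled in red and named. Arsa and Hexa are red above 0 in leptin against calorie restricted and red under 0 in calorie restricted against wild type, S1pr3 is red in all 3 panels, and the de novo branch holds no red point.

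Markers of some other cell types also differed in the comparisons in which Degs1, Arsa, Hexa and S1pr3 were called. The 8 macrophage markers, Csf1r and Adgre1 among them, summed to 3132 to 4393 in leptin hearts, 1779 to 2492 in calorie restricted hearts, 2541 to 3355 in ad libitum hearts and 2823 to 5042 in wild type hearts. Of the 8, 7 were called higher in leptin against calorie restricted, 7 lower in calorie restricted against wild type and 3 lower in calorie restricted against ad libitum. The 8 fibroblast markers summed to 5880 to 7385 in leptin, 4276 to 5636 in calorie restricted, 5572 to 6441 in ad libitum and 5370 to 10082 in wild type hearts, and 5 of them were called higher in leptin against calorie restricted and 5 lower in calorie restricted against each of ad libitum and wild type. Dcn, the fibroblast marker with the highest signal, went the other way, averaging 3201 in leptin and 3333 in calorie restricted hearts. The 8 endothelial markers summed to 2826 to 3181 in leptin, 2188 to 2507 in calorie restricted, 2658 to 3270 in ad libitum and 2304 to 3033 in wild type hearts, with 3 called higher in leptin against calorie restricted, 2 lower in calorie restricted against ad libitum and 0 in calorie restricted against wild type. The 8 smooth muscle and pericyte markers summed to 4728 to 5940 in leptin, 5045 to 5875 in calorie restricted, 5184 to 5513 in ad libitum and 5076 to 5625 in wild type hearts. Of these, 3 were called higher in leptin against calorie restricted, 1 higher in calorie restricted against ad libitum, and 1 higher and 1 lower in calorie restricted against wild type. The median of their log2 differences in leptin against calorie restricted was -0.01, and the signs were mixed. Of the 2 erythroid markers tested, 1 was called lower in calorie restricted against wild type. Of 6 adipocyte markers 4 were measured and 1 tested, and they summed to 23.5 to 69.7 in leptin, 38.6 to 132 in calorie restricted, 35.5 to 95.5 in ad libitum and 33.6 to 67.3 in wild type hearts. None of the 8 ventricular cardiomyocyte markers was called in any comparison. In tissue RNA, fewer cells of a type and less RNA per cell cannot be told apart, and the part of these cell types in the Degs1, Arsa, Hexa and S1pr3 differences was not tested.

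The genes whose pattern over the 18 arrays was nearest to that of the called members were found by the root mean square distance of centred log2 signals. Nearest to Degs1 were Myh9, a non-muscle myosin heavy chain (0.0920), Cbx1, a heterochromatin protein (0.0921), and Fbl, fibrillarin (0.0941), where the median distance over all genes was 0.346. Nearest to Sgms1 were Mrps18c, a mitochondrial ribosomal protein (0.177), Cat, catalase (0.179), and Pink1, a mitochondrial kinase (0.181), where the median was 0.384. A flat gene would lie at the member's own root mean square, 0.236 for Degs1 and 0.292 for Sgms1, so the Sgms1 matches were looser. In leptin against calorie restricted Myh9 differed by 0.52, beside 0.51 for Degs1. Mrps18c differed by -0.35 and Cat by -0.41, beside -0.53 for Sgms1. The distances describe these arrays, and genes with little spread of their own lie nearer to any gene.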

How the data were processed

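RNA of 18 heart samples was hybridised to Affymetrix arrays of 45101 probe sets. The deposited values are linear signal intensities that the authors made with MAS5, per the submitters' processing notes, and their trimmed mean (2% at each end) was 100.001 on every array, so differences in total signal are removed. The MAS5 version is not given in the sources used here. Control sets (64) and sets with several (932) or no listed symbol (9160) were left out. Each gene was read from the set with the highest mean. Signals became log2(signal + 5.13), 5.13 being the 20th percentile, which understates changes of low genes. Genes under the 40th percentile (4.36) were dropped, leaving 13359. A limma 3.58.1 model in R 4.3.3 with 1 coefficient per group gave 6 two-sided contrasts, with Benjamini-Hochberg adjustment over all genes. The adjusted p-values of genes come from it. A further limma fit took 23108 probe sets and gave the adjusted p-values where probe sets of a gene are compared. Those of an alternative come from its own fit. The procedure was tested on simulated data. For arrays, their number limits the precision. Members and lists were chosen with earlier results of these data known. Named were all members, up to 4 called pathway genes per comparison and direction with the smallest p (2 uncalled where none was called), and the 3 genes most alike to each called member; B4galt6 was named beyond this, after its values were seen. Alternatives were the pseudocount, the filter, averaged or all probe sets, quantile normalization, the groups fitted, a replicate block, an atrial covariate and left-out samples.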

Additional observations from a re-analysis of the deposited data

Results flagged for a closer look

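In 3 of the 40 member and group combinations, 1 heart stood apart from the others of its group by Dixon's test, and chance flags about 1 in 20 groups. The Sptlc1 signal of wild type replicate 4 was 161, while the other wild type hearts were at 195 to 196. The Sptlc2 signal of ad libitum replicate 2 was 95.8, with the others at 83.1 to 84.4. The Cers5 signal of ad libitum replicate 1 was 263, with the others at 281 to 283.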

How the results depend on the processing

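No called difference changed sign under the alternatives run. Of the member counts, that of calorie restricted against ad libitum became 1 (Degs1, -0.30, adjusted p 0.0451) with the probe sets of a gene averaged, and that of leptin against calorie restricted 1 with the replicate block, which ended the Sgms1 call (-0.53, adjusted p 0.0573). Leaving out 1 heart at a time gave 1 to 2 members in leptin against calorie restricted, 1 to 1 in calorie restricted against wild type and 0 to 0 in the others. Of the further pathway genes, the count of 6 in leptin against calorie restricted was 3 without calorie restricted replicates 2 and 3 together, and 4 to 6 with 1 heart left out. With the atrial covariate it was 4, the calls of Spns2 and S1pr1 being lost. That covariate also ended the S1pr1 call in calorie restricted against wild type (0.39, adjusted p 0.0659). The count of 8 in calorie restricted against wild type was 5 with probe sets averaged, 5 with no filter on low signals, 3 with only the compared groups fitted, 3 with the replicate block, 2 without calorie restricted replicates 2 and 3 together, and 2 to 7 with 1 heart left out. The count of 1 in calorie restricted against ad libitum was 0 with probe sets averaged, 2 after quantile normalization, and 1 to 2 with 1 heart left out. The causes were not tested. Single differences were tallied over all members and the called pathway genes. Under the alternatives other than 1 heart left out, 681 values kept their side of the threshold, 37 lost and 2 gained a call. These include the fit without calorie restricted replicates 2 and 3 together. With 1 heart left out 642 kept, 38 lost and 1 gained it. Most of these differences were uncalled in the main fit and could not lose a call, so every loss fell on a called difference, and the kept counts say little about how firm the calls are. The replicate block was fitted because the labels number the samples, and of 25 same-numbered pairs 1 correlated above 0.1 (range -0.18 to 0.34) and 2 correlated best with their own number, so the numbers were not taken as pairs. The deposited table used here was checked to hold signals only, so how far a set stood over background on each array was not tested.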
